A study of Rattus norvegicus with 9 samples.

Results

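The fragments described here are 25 tRNA-derived small RNAs from a set of 28. Fragments of that set stand beside one another, again and again, in the row order of the deposited tables. Each table held 2122 rows for 530 fragments, in the same order in all 9 libraries, so that many fragments stood on several rows with identical values. A pair of different fragments was linked where they followed each other, in the same order, at 2 or more places. The linked fragments around AS-tDR-002004 numbered 28, the largest of 41 such row sets, and 3 of them (AS-tDR-000393, AS-tDR-000395 and AS-tDR-008072) were left out by number, which left 25 members of 530 fragments. The links used row order and no measured level, but the 3 fragments left out had been set apart with their levels known. Counts of members below depend on that choice. No source used here explains what a shared place in the row order stands for, and no sequence, fragment type, parent tRNA or gene was paired with an identifier, so no sequence is printed and none of these can be assigned to a member.

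Small RNAs cut from tRNAs fall into short tRNA-derived fragments (tRFs) and longer stress-induced fragments (tiRNAs), which are made when nucleases such as angiogenin cut a mature tRNA in its anticodon loop under stress. Both kinds have been described as regulators of translation and, for some tRFs, as guides of gene silencing similar to microRNAs. Injured brain tissue is a setting in which tRNA cleavage has been studied.

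Brain tissue surrounding the right globus pallidus was taken on day 21 after the operation, from male rats of the Sprague-Dawley strain. In the sham group the globus pallidus received 2.5 µl of saline. The intracerebral haemorrhage (ICH) group received 0.5 U of collagenase type VII, an enzyme that breaks down vessel walls, in the same volume. The ICH + BYHWD group had the same haemorrhage and was gavaged once a day for 21 days with 4.36 g/kg of Buyang Huanwu Decoction, a herbal mixture of traditional Chinese medicine. No group received the decoction without a haemorrhage. Each group had 3 libraries, and the labels do not state that each came from a separate rat. The p-values below therefore weigh group differences against the spread between libraries.

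Library totals were 735460, 715067 and 530827 tags in sham 1, 2 and 3 and 1066616, 980150 and 888167 in ICH 1, 2 and 3. They were 799227, 683782 and 1002327 in ICH + BYHWD 1, 2 and 3. Every ICH total lay above every sham total, so these groups differed in depth as well as in haemorrhage. The part of depth in that comparison was not tested. Levels are given in the deposited TPM, the count divided by the library total on a fixed scale, with no term for length. The lowest level listed in a library was 134 to 152 TPM, so a value of 0 means that a fragment was not listed, not that it was absent. One library of the ICH group stood apart: of the 311 fragments above 0 in all 9 libraries, 183 (58.8%) had their lowest TPM in ICH 2. Sham 3 was the smallest library and lay close to ICH for many members, as given beside the results.

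The 25 members stood on 142 rows in all, with 2 to 10 rows each and a median of 6, against a median of 2 over all fragments. AS-tDR-002004, AS-tDR-007510 and AS-tDR-002015 each stood on 10 rows. The row order repeated in whole stretches. AS-tDR-000494, AS-tDR-007517, AS-tDR-002015, AS-tDR-002004, AS-tDR-007510, AS-tDR-002010, AS-tDR-007812 and AS-tDR-006049 followed each other in this order 3 times. A stretch that opened with AS-tDR-000530 and went on through AS-tDR-009594, AS-tDR-002233, AS-tDR-007995, AS-tDR-008764, AS-tDR-006051, AS-tDR-000071 and AS-tDR-006441 occurred 2 times. The tail AS-tDR-000396, AS-tDR-006017, AS-tDR-000102, AS-tDR-006237 and AS-tDR-006248, preceded by 2 of the fragments left out, occurred 6 times.

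Asking for links at 3 or more places broke the set into smaller row groups. The group with AS-tDR-002004 kept 10 members, the group with AS-tDR-000396 kept 5, the group with AS-tDR-006051 had 4, and the group with AS-tDR-002233 had 3. AS-tDR-002023, AS-tDR-000530 and AS-tDR-006112 then stood alone. The set before leaving fragments out is therefore a chain of row groups joined by a few links that occur only 2 times each. The group with AS-tDR-000396 was joined to the others only through AS-tDR-000393, which was left out. Its 5 members thus have no link to the other members.

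Members were well measured. Of the 25, 24 were above 0 in all 9 libraries, against 311 of all 530 fragments (58.7%), and all 25 passed the filter on low counts. The exception was AS-tDR-009594, listed at 260 TPM in sham 3, at 283, 419 and 229 TPM in ICH 1, 2 and 3, and at 175 and 272 TPM in ICH + BYHWD 1 and 3. It was listed at 0 in sham 1, sham 2 and ICH + BYHWD 2, so no fold is printed for it, while its fitted value is counted in the numbers above 0 and in the medians below. The lowest count of a listed member was 138 tags, for which counting alone gives a relative SD of 8.51%, and the highest was 17895 tags.

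Together the members held 3.19%, 3.01% and 4.40% of all tags in sham 1, 2 and 3. They held 4.96%, 6.67% and 4.04% in ICH 1, 2 and 3, and 4.17%, 3.91% and 4.54% in ICH + BYHWD 1, 2 and 3. The 95% Wilson interval of each share reached at most 0.0555 percentage points from its value and covers counting error only. The mean share was 3.53% ± 0.758 in the sham libraries, 5.22% ± 1.34 after haemorrhage alone and 4.21% ± 0.316 with the decoction (SD, n = 3). The ICH and sham libraries overlapped, since sham 3 lay above ICH 3. Most of the tags lay in the row group of AS-tDR-002004, with 2.58% ± 0.746 for sham, 4.14% ± 1.33 for ICH and 3.06% ± 0.251 for ICH + BYHWD (SD, n = 3). The row group of AS-tDR-000396 held 0.413% ± 0.0508, 0.346% ± 0.0624 and 0.464% ± 0.0299 in the same order, so its mean was lowest where that of the first was highest. These sums run over a chosen set and were given no test.

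AS-tDR-002004, the most abundant member, made up 18.8% of the set's tags on average. It was at 4268, 3649 and 11132 TPM in sham 1, 2 and 3, at 11951, 18257 and 5720 TPM in ICH 1, 2 and 3, and at 8518, 5628 and 8205 TPM in ICH + BYHWD 1, 2 and 3. Sham 3 was about as high as ICH 1, and ICH 3 was as low as ICH + BYHWD 2, so all groups overlapped. AS-tDR-007510, which follows it at each of its 10 places, was at 3622, 2762 and 6079 TPM in sham, 6508, 10560 and 4358 TPM in ICH and 4946, 2760 and 5455 TPM in ICH + BYHWD. AS-tDR-002010 was at 1076, 875 and 3278 TPM in sham, 4575, 7319 and 2192 TPM in ICH and 2870, 2039 and 3011 TPM in ICH + BYHWD. In all of these 3 members sham 3 lay above ICH 3, and ICH 2 was the highest library.

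Other abundant members did not share that order of libraries. AS-tDR-006049, which closes the stretch that holds AS-tDR-002004, was at 3036, 4282 and 3527 TPM in sham, 2932, 1753 and 3898 TPM in ICH and 3857, 3984 and 5504 TPM in ICH + BYHWD, with ICH 2 the lowest. AS-tDR-007517, the second of the same stretch, was at 3656, 3783 and 2728 TPM in sham, 2665, 2861 and 3003 TPM in ICH and 1993, 2967 and 2518 TPM in ICH + BYHWD. Its highest library was 1.90 times its lowest, against 5.00 times for AS-tDR-002004. The level of AS-tDR-002004 was 1.41, 0.852 and 3.16 times that of AS-tDR-006049 in sham 1, 2 and 3. The same ratio was 4.08, 10.4 and 1.47 in ICH 1, 2 and 3, and 2.21, 1.41 and 1.49 in ICH + BYHWD 1, 2 and 3. A ratio of TPM within a library does not depend on library scaling, and it overlapped between all groups.

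Over the 24 members above 0 in every library, the profiles fell into a few kinds, which were named after the values were seen and carry no test. ICH 2 is an ICH library, so group sums and fold changes by kind follow in part from the choice. There were 10 members with their highest TPM in ICH 2: AS-tDR-002004, AS-tDR-007510, AS-tDR-002010, AS-tDR-007812, AS-tDR-007508, AS-tDR-002233, AS-tDR-007995, AS-tDR-002015, AS-tDR-007816 and AS-tDR-002023. Their level in ICH 2 was 2.13 to 4.04 times the median of the other 8 libraries. Over all 311 fragments 50 (16.1%) were highest in ICH 2, and the median of this ratio was 0.651. The summed share of these 10 was 1.83% ± 0.906 for sham, 3.72% ± 1.77 for ICH and 2.25% ± 0.133 for ICH + BYHWD (SD, n = 3).

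Of these 10, 3 had a further high library. AS-tDR-002015 was at 1177, 561 and 550 TPM in sham, 2062, 3513 and 1222 TPM in ICH and 557, 3239 and 406 TPM in ICH + BYHWD. AS-tDR-007816, its neighbour at 3 places, was at 1035, 477 and 309 TPM in sham, 1155, 2030 and 930 TPM in ICH and 324, 1556 and 278 TPM in ICH + BYHWD. Both, like AS-tDR-002023, had their next highest level in ICH + BYHWD 2 and their lowest in ICH + BYHWD 3, so the decoction group held nearly the whole range of these fragments. The other 7 were all lower in ICH + BYHWD 2 than in sham 3.

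Another 9 members had the opposite profile, with the lowest TPM in ICH 2 and the highest in ICH + BYHWD 3: AS-tDR-006049, AS-tDR-006248, AS-tDR-006237, AS-tDR-006017, AS-tDR-000102, AS-tDR-006051, AS-tDR-000071, AS-tDR-006441 and AS-tDR-006112. Their level in ICH 2 was 0.400 to 0.583 times the median of the other 8 libraries, against a median ratio of 0.651 over all 311 fragments. TPM is not corrected for that general low level in ICH 2. This profile was common among all fragments, at 96 of 311 (30.9%). Their summed share was 0.916% ± 0.138 for sham, 0.726% ± 0.259 for ICH and 1.10% ± 0.213 for ICH + BYHWD (SD, n = 3). AS-tDR-000494 and AS-tDR-000530 were also lowest in ICH 2 but highest in ICH 3. The remaining 3, AS-tDR-007517, AS-tDR-000396 and AS-tDR-008764, had in ICH 2 between 1.00 and 1.21 times the median of the other libraries.

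In the row group of AS-tDR-002004 the profiles differed along a stretch of rows. In the stretch that occurred 3 times the opening fragment AS-tDR-000494 was at 0.456 times the median of the other libraries in ICH 2, and AS-tDR-007517 after it at 1.00 times. AS-tDR-002015, AS-tDR-002004, AS-tDR-007510, AS-tDR-002010 and AS-tDR-007812, which follow, were at 4.04, 2.62, 2.27, 2.89 and 2.52 times. The closing AS-tDR-006049 was at 0.452 times. Another stretch of this group, which occurred 2 times and also opened with AS-tDR-000494, ended at AS-tDR-002010 and so at 2.89 times. In the stretch of AS-tDR-000530, which runs across row groups, the opening fragment was at 0.461 times, AS-tDR-002233 and AS-tDR-007995 after it at 2.48 and 2.28 times, AS-tDR-008764 at 1.21 times, and the last 3 fragments at 0.428, 0.583 and 0.500 times. A variant of it, which occurred 2 times, held AS-tDR-006112, at 0.400 times, between AS-tDR-007995 and AS-tDR-008764. In the tail of AS-tDR-000396 that fragment was at 1.15 times and the 4 after it at 0.479 to 0.511 times. Most members of the other row groups shared 1 profile. The opposite profile was that of 4 of 5 members in the group of AS-tDR-000396 and of 3 of 4 in the group of AS-tDR-006051, while AS-tDR-002233 and AS-tDR-007995, of 1 group, were both highest in ICH 2. This is a description of a few stretches in 1 library, and it was not tested.

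Some members kept a nearly fixed ratio to one another across the 9 libraries, including members of different row groups. AS-tDR-006051 was at 0.212 to 0.245 times the level of AS-tDR-006049, with an SD of the log2 ratio of 0.07 over the 9 libraries, the smallest of the 276 pairs. AS-tDR-006237 was at 0.297 to 0.358 times AS-tDR-006248 (SD of the log2 ratio 0.08). AS-tDR-002233 was at 0.115 to 0.141 times AS-tDR-002004 (0.11), although their highest level was 4.65 and 5.00 times their lowest. AS-tDR-000530 was at 0.198 to 0.248 times AS-tDR-000494 (0.12), the pair that open their stretches.

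Such steady pairs were 36 of 276 among the members (13.04%) at an SD of the log2 ratio under 0.2, a limit chosen after seeing the data, and 5.91% of the 48205 pairs of all 311 fragments. Most of these 36 lay within the 9 members lowest in ICH 2 and highest in ICH + BYHWD 3. That profile was held by 96 of all 311 fragments (30.9%). The median SD of the log2 ratio was larger among members, at 0.91, than among all fragments, at 0.53, and the set holds the opposite profiles given above. Pairs within a row group had a median of 0.79 and other pairs one of 0.92. Pairs share libraries and fragments and are not independent, so no test was made.

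The first comparison asked which members differ between tissue around a haemorrhage and sham-operated tissue. The smallest p belonged to AS-tDR-002023, at 680, 380 and 347 TPM in sham and 1254, 1992 and 1020 TPM in ICH. All 3 ICH levels were above all 3 sham levels. The fitted log2 fold change was 1.87 with an SE of 0.71, which is 3.65-fold (95% interval 1.18 to 11.4), and its adjusted p was 0.507 by edgeR's quasi-likelihood test with Benjamini-Hochberg adjustment over the 455 fragments tested. AS-tDR-007812 was at 865, 913 and 2615 TPM in sham and 3175, 4894 and 2060 TPM in ICH, where sham 3 lay above ICH 3. Its ICH + BYHWD libraries were at 1697, 1821 and 2070 TPM. Its log2 fold change was 1.47 (SE 0.59), and that of AS-tDR-002010 was 1.72 (SE 0.70), both with an edgeR adjusted p of 0.507. All 3 members thus missed the threshold of 0.05.

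Of the 25 members, 0 passed in either direction with edgeR in ICH against sham, where 0% of all fragments passed. DESeq2 also passed 0 members, against 3.74% of all fragments higher and 2.2% lower, and its smallest adjusted p among members was 0.0526, for AS-tDR-002023. It was next 0.0824 for AS-tDR-007812 and 0.0829 for AS-tDR-002010. The limma-voom test passed 0 members and 0% of all fragments, with a smallest adjusted p of 0.341 among members. At an unadjusted p under 0.05 there were 3 members higher (12%), namely AS-tDR-002010, AS-tDR-002023 and AS-tDR-007812, and 0 lower, against 5.27% and 3.74% of all fragments, a difference of few fragments. DESeq2 gave 11 of 25 members higher and 0 lower at an unadjusted p, against 14.5% and 5.05% of all fragments. For limma-voom they were 4 and 0 of 25, against 7.91% and 5.27%. Groups did not overlap in TPM for AS-tDR-002015 and AS-tDR-002023, 2 of 25 members (8%) higher against 4.84% of all fragments, and for 0 lower against 8.35%. AS-tDR-000393 and AS-tDR-000395, set apart as lower after haemorrhage, were left out of the members and not of all fragments. The counts of lower members, and the median that follows, depend on that choice.

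Fitted log2 fold changes in ICH against sham were above 0 in 15 members and below 0 in 10 (13 above 0 without scaling factors), with a median of 0.15 against -0.02 over all 455 fragments, of which 48.8% were above 0. The 10 members highest in ICH 2 had values of 1.05 (AS-tDR-007508) to 1.88 (AS-tDR-002015). AS-tDR-002004 itself was at 1.20 (SE 0.64), with a 95% interval on the fold of 0.828 to 6.41. The 9 members with the opposite profile had values of -0.35 (AS-tDR-006112) to -0.13 (AS-tDR-006237). The signs of both kinds follow in part from their choice by the level in ICH 2. AS-tDR-000494, AS-tDR-000530, AS-tDR-000396 and AS-tDR-007517 lay between -0.07 and 0.15, and AS-tDR-008764 was at 0.59 (SE 0.29).

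Leaving out 1 library moved these values. Without sham 3, edgeR passed 3 members in ICH against sham, AS-tDR-002010 with a log2 fold change of 2.35 (adjusted p 0.0165), AS-tDR-007812 with 2.01 (adjusted p 0.0117) and AS-tDR-002233, while 8.35% of all fragments were then higher past the threshold. Without ICH 2 the log2 fold changes of AS-tDR-002010 and AS-tDR-007812 were 1.00 and 0.87. That of AS-tDR-002023 was 1.29 without ICH 2, 2.18 without ICH 3 and 1.49 without sham 3 (edgeR adjusted p 0.360). The count of members higher at an unadjusted p under 0.05 was 8 of 25 without sham 3, against 13.8% of all fragments. It was 10 of 25 without ICH 3, against 10.1%, and 6 of 25 without ICH + BYHWD 2, against 5.22%. It was 4 without ICH 1, against 2.96%. It was 0 without ICH 2 (1.06% of all fragments) or sham 2 (0.844%), and 1 without sham 1 (1.9%), ICH + BYHWD 1 (3.98%) or ICH + BYHWD 3 (4.45%). The part of library size, composition or tissue in the position of sham 3, ICH 2 and ICH 3 was not tested.

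The second comparison asked how members differed between rats with a haemorrhage that received the decoction and those that did not. It shares the ICH libraries with the first, so opposite values in both are not separate evidence. AS-tDR-000102, in the tail of AS-tDR-000396, was at 413, 281 and 561 TPM in ICH and 628, 595 and 829 TPM in ICH + BYHWD, with no overlap, and at 502, 624 and 520 TPM in sham. Its log2 fold change was 0.44 with an SE of 0.16, which is 1.36-fold (95% interval 1.05 to 1.76), and its edgeR adjusted p was 0.533. AS-tDR-006112 was at 407, 193 and 433 TPM in ICH and 518, 481 and 755 TPM in ICH + BYHWD, also without overlap, and at 424, 494 and 484 TPM in sham. Its log2 fold change was 0.50 (SE 0.22) at the same adjusted p. On the lower side AS-tDR-007995 was at 833, 1310 and 594 TPM in ICH and 553, 350 and 759 TPM in ICH + BYHWD, with sham at 397, 392 and 716 TPM. Those groups overlapped, and its log2 fold change of -1.16 (SE 0.51) again had an edgeR adjusted p of 0.533. No member passed the threshold. The value of AS-tDR-007995 was -0.59 without ICH 2, -0.65 without ICH + BYHWD 2 and also -0.65 without scaling factors. That of AS-tDR-006112 was 0.28 without ICH 2, 0.79 without ICH 1, 0.77 without ICH + BYHWD 2 and 0.80 without scaling factors. That of AS-tDR-000102 was 0.32 without ICH 2, 0.39 without ICH + BYHWD 3, 0.68 without ICH + BYHWD 2 and 0.75 without scaling factors.

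With edgeR 0 of 25 members passed in ICH + BYHWD against ICH, as 0% of all fragments did. DESeq2 passed 0 members, against 1.1% of all fragments in each direction, and limma-voom passed 0 members and 0% of all fragments. At an unadjusted p under 0.05 edgeR had 1 member higher, AS-tDR-000102 (4%), and 0 lower, against 4.4% and 2.2% of all fragments, so this count is at the background. DESeq2 had 3 of 25 members higher and 7 lower, against 7.25% and 8.79% of all fragments. For limma-voom they were 1 and 1 of 25, against 4.62% and 5.49%. Groups did not overlap for AS-tDR-000102, AS-tDR-006017 and AS-tDR-006112, 3 of 25 (12%) higher against 11.4% of all fragments, and for 0 lower against 1.32%. The share without overlap is thus close to that of all fragments. AS-tDR-008072, set apart as low despite the decoction, was left out of the members and not of all fragments. The counts of lower members here can depend on that choice.

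Fitted log2 fold changes in ICH + BYHWD against ICH were above 0 in 11 members and below 0 in 14 (12 above 0 without scaling factors), with a median of -0.45 against -0.09 over all fragments, of which 47.9% were above 0. Among the 10 members highest in ICH 2 they ran from -1.36 (AS-tDR-007816) to -0.998 (AS-tDR-002023), with -1.15 (SE 0.64) for AS-tDR-002004. The 9 with the opposite profile were at 0.16 (AS-tDR-006237) to 0.50 (AS-tDR-006112). These signs, too, follow in part from how both kinds were picked. At an unadjusted p under 0.05, 3 of 25 members were higher and 9 lower without ICH 3, against 6.92% and 7.13% of all fragments. Without sham 3 they were 2 and 4 of 25, against 3.55% and 2.09%. The counts were 2 and 3 without ICH + BYHWD 2, against 4.8% and 4.38%. They were 2 and 0 without sham 1 (2.75% and 0.846%) or sham 2 (2.53% and 0.844%), and 0 and 0 without ICH 2 (1.27% in each direction) or ICH + BYHWD 3 (5.08% and 0.847%).

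The last comparison asked whether treated rats differed from sham. AS-tDR-007517 had the smallest p, at a log2 fold change of -0.60 with an SE of 0.24, which is 0.660-fold (95% interval 0.449 to 0.973), and an edgeR adjusted p of 0.997. Its sham 3, at 2728 TPM, lay below ICH + BYHWD 2, at 2967 TPM, so the groups overlapped. AS-tDR-000494 was at 2692, 2144 and 1946 TPM in sham and 4566, 2795 and 3328 TPM in ICH + BYHWD, with no overlap, while ICH 1, 2 and 3 were at 1456, 1252 and 4701 TPM. Its log2 fold change was 0.50 (SE 0.38, edgeR adjusted p 0.997), and it was 0.26 without ICH + BYHWD 1 and 0.77 without sham 1. AS-tDR-002023 was at 581, 1920 and 344 TPM in ICH + BYHWD, on both sides of its sham levels, and its log2 fold change of 0.87 (SE 0.69) turned to -0.08 without ICH + BYHWD 2. It was 1.39 without sham 1, 1.36 without ICH + BYHWD 3 and 0.50 with limma-voom.

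In ICH + BYHWD against sham 0 of 25 members passed with edgeR, DESeq2 or limma-voom, against 0% of all fragments with edgeR and limma-voom and, with DESeq2, 2.42% higher and 1.76% lower. At an unadjusted p under 0.05 edgeR had 0 members higher and 1 lower (4%), against 0.22% and 3.96% of all fragments. DESeq2 had 0 and 1 as well, against 3.74% and 5.71%, and so had limma-voom, against 1.1% and 6.15%. Without sham 3 the counts were 3 and 0 of 25, against 10.9% and 2.3% of all fragments. They were 0 and 0 without sham 1 (0.634% and 0.423% of all fragments), sham 2 (0.211% and 0.633%), ICH 1 (0.211% and 0.846%), ICH + BYHWD 1 (0.419% and 2.73%) or ICH + BYHWD 3 (1.69% in each direction). Groups did not overlap for 1 member higher (4%), AS-tDR-000494, against 7.47% of all fragments, and for 0 lower against 3.08%. Counts of lower members can again depend on leaving out AS-tDR-008072, which had been set apart as low despite the decoction. Log2 fold changes were above 0 in 20 members (23 without scaling factors), with a median of 0.10 against 0.06 over all fragments, of which 56.7% were above 0. The 95% interval for AS-tDR-002004 ran from 0.378-fold to 2.85-fold, so a 2-fold change in either direction lies within it. When all 3 groups were tested for any difference, edgeR passed 0 members, and 0 had an unadjusted p under 0.05, against 6.37% of all fragments.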

How the data were processed

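Small RNA of 15 to 50 nt was sequenced after a pretreatment that removes tRNA modifications, per the labels' protocols. FastQC, cutadapt, Novoalign 2.07.11 and the human build hg19 are named in the submitters' processing notes. How that build served rat reads, and how fragments were annotated and counted, is not stated in any source used here. The tag counts are raw whole numbers as the authors deposited them. The TPM column, another unit than strict TPM, is the deposited count divided by 1 total per library on a fixed scale, and that total was recovered from it.

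One row per fragment was kept. The test was edgeR 4.0.16 (R 4.3.3): filterByExpr by group (minimum count 10, 455 fragments left), TMM, glmQLFit with robust estimation over all 9 libraries, glmQLFTest per contrast, and Benjamini-Hochberg adjustment over the 455 at 0.05. Standard errors and 95% intervals come from the F statistic and are not adjusted. DESeq2 1.42.0, limma-voom (limma 3.58.1) and other settings were alternatives. Only edgeR, DESeq2 and limma-voom, each at its main settings, were run on simulated data first. Those data had the same dispersion for every fragment and no outlying library, unlike the libraries here. The other settings were not simulated. Library numbers follow accession order.

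The members, lists and settings were chosen with earlier results of these data known. Every member is named. Values in all libraries are given for AS-tDR-002004, the 5 most abundant members and the 3 with the smallest p per comparison. AS-tDR-002015, AS-tDR-007816 and AS-tDR-009594 were added after their values were seen.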

Additional observations from a re-analysis of the deposited data

How the results depend on the processing

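The number of members past the threshold was 0 in every comparison and stayed at 0 with RLE factors, no factors, recovered library totals, no low-count filter, DESeq2, limma-voom, the 6 libraries compared, only fragments above 0 in all libraries, zeros at the lowest listed count, no robust estimation and, with edgeR, a threshold of 0.1. With DESeq2 3 members had an adjusted p under 0.1, in ICH against sham. Leaving out 1 library gave 0 to 3 members for ICH against sham, 0 to 2 for any difference among the 3 groups, and 0 to 0 for ICH + BYHWD against ICH and against sham, with the highest counts without sham 3, where 8.35% of all fragments were higher in ICH against sham and 5.64% passed for any difference. Of the named log2 fold changes, that of AS-tDR-002023 in ICH + BYHWD against sham turned from 0.87 to -0.0823 without ICH + BYHWD 2 and ran up to 1.39 without sham 1, which was its high library in that group, and 0 others turned. Without factors the median log2 fold change of all fragments moved to -0.23, 0.22 and 0.19 in the order of the comparisons, and 13, 12 and 23 members were above 0 in place of 15, 11 and 20, a count added after seeing the data.

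The share of tags held by the members became 4.80%, 6.67% and 5.63% for sham, ICH and ICH + BYHWD over the sum of listed counts. In the same order it was 4.54%, 6.49% and 5.47% with every row counted, and 2.58%, 4.14% and 3.06% with links at 3 or more places. Without AS-tDR-002004 it was 2.90%, 4.02% and 3.46%. Each of these constructions implies such a shift. Leaving out 1 library gave 3.10 to 3.79% in sham, 4.50 to 5.81% in ICH and 4.04 to 4.35% in ICH + BYHWD. No paired analysis was possible because the labels share no replicate number between groups. AS-tDR-009594, at 0 in 3 libraries, has no printed fold.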
